A study of Mus musculus with 30 samples.

Results

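The core adipogenic transcription factors described here are 9 genes: Pparg, the C/EBP genes Cebpa, Cebpb and Cebpd, the retinoid X receptor genes Rxra and Rxrb, the STAT genes Stat5a and Stat5b, and Nr3c1, which encodes the glucocorticoid receptor. They were chosen by name, as factors known from adipocyte differentiation, and were found among the 55573 genes of the deposited CPM table (reads of a gene scaled to the library total). All 9 also stood among the 12016 genes of the deposited count table, so no member was lost to the filter on low values. RNA-seq had been run on 3T3-L1 cells, a mouse embryonic fibroblast line that turns into fat cells when induced. The cells were given 50 nM Kdm5c siRNA or 50 nM non-targeting scramble siRNA by lipid transfection, and were collected 24 h (day −2), 48 h (day −1) or 72 h (day 0) later. The labels name no induction cocktail for any group. Kdm5c encodes a histone H3 lysine 4 demethylase. The 6 groups were thus Kdm5c siRNA and scramble at each of the days, with 5 libraries each and 30 in all. All libraries come from 1 cell line, every library went through transfection, and no untransfected cells were used here. The labels do not say that the libraries of a group came from separate cultures, so a p-value here reflects library-to-library spread alone, and that spread may be technical.

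The libraries held 25217905 to 33725717 reads. Kdm5c itself checked the labels: the Kdm5c siRNA libraries held 16.2%, 18.9% and 25.2% of the scramble level on days −2, −1 and 0, and no library overlapped the other siRNA on any day. The cell type was checked against 10 preadipocyte and fibroblast markers, all of which were in the count table, with a summed level of 33900 to 59900 CPM. Of 10 mature adipocyte markers, Fabp4 and Lipe were in the count table, Adipoq and Plin1 did not exceed 0.159 CPM in any library, and Cfd was at 0 in all 30 libraries. Epithelial markers summed to at most 0.391 CPM, endothelial markers to at most 2.76 CPM, and macrophage and blood markers to at most 13 CPM. Skeletal muscle markers summed to 32.2 to 36.2 CPM on day −2 with either siRNA, most of it Acta1, and to at most 6.93 CPM later, while Myod1 was at 0 throughout. One set of libraries stood apart in what follows. Scramble replicates 1, 2 and 3 of day −1 were above replicates 4 and 5 of that group in Cebpb and Cebpd. The test across all genes was also run without them. Where this ended a day −1 call printed here, turned its direction or moved its count by over 1.5 times, that value stands beside it. Ratios of gene pairs and exact permutation tests were not repeated without these libraries.

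In cultured preadipocytes, C/EBPβ and C/EBPδ are known as the early factors of differentiation, switched on by the hormones of the induction cocktail. The glucocorticoid receptor and STAT5 are the factors through which glucocorticoid and growth hormone signals reach the same enhancers. Together they lead to PPARγ and C/EBPα, which maintain each other and the fat cell programme, and PPARγ binds DNA as a dimer with a retinoid X receptor. The libraries here end where induction would start, so the levels are those of the factors the cells hold before the cascade.

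Pparg and the Stat5 pair are shown at the level of sequence first. Pparg has starts that differ in base composition, and Stat5a and Stat5b are neighbours whose ratio differed between the siRNAs. RefSeq (GRCm38.p6) gave promoter windows, 250 bases before to 50 bases after a start, for 7 of the 9 members, at 13 starts. Each sequence is printed 5′ to 3′ on the strand of the gene, and capitals mark matches of the C/EBP motif TTGCNNAA on either strand. The most downstream Pparg start is the one of PPARγ2, the isoform known for its adipocyte restriction, and the most upstream one belongs to PPARγ1.
Pparg, downstream start, chr6:115421816-115422115, plus strand: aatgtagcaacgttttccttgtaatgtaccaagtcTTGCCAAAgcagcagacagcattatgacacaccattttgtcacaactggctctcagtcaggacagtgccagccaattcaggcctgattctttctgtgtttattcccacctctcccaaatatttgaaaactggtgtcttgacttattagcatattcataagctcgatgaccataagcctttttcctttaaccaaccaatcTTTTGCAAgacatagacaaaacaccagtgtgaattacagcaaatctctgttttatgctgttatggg
Pparg, upstream start, chr6:115360894-115361193, plus strand: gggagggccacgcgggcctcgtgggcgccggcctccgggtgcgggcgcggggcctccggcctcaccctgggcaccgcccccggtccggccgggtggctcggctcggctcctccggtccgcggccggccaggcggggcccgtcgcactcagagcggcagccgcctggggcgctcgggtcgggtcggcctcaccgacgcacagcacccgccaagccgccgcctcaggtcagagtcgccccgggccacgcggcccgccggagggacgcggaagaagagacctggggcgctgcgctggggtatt
Stat5a, chr11:100859406-100859705, plus strand: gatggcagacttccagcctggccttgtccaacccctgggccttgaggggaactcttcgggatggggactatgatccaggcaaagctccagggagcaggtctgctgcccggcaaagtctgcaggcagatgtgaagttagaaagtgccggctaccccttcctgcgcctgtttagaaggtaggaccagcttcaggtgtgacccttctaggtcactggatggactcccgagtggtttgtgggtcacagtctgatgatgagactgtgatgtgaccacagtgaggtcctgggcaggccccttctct
Stat5b, chr11:100850532-100850831, minus strand: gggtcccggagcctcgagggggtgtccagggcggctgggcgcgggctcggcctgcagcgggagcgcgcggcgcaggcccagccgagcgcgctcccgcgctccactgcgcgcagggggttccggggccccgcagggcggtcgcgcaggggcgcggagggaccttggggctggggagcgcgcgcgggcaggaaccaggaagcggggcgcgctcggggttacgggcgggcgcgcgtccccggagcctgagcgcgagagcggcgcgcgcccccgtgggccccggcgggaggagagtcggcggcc

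The downstream Pparg window held 40.3% GC and 2 CpG, against 80.3% GC and 44 CpG in the upstream one. A Pparg start between them, not printed, had 62.7% GC and 13 CpG. The median over all 32851 promoters of the table was 52.7% GC and 7 CpG. The downstream Pparg window held 2 matches of TTGCNNAA, whose first bases lay 215 and 16 bases upstream of the start. They were the only matches of that motif at the 13 starts. Of all promoters in the table, 10.8% held at least 1 match and 0.773% held 2 or more. The shares given here are over all promoters and were not matched for GC. The STAT motif TTCNNNGAA was in 8.3% of all promoters and at none of the 13 starts. The glucocorticoid receptor motif ACANNNTGT was in 6.85% of all promoters and at 1 of the 13, an internal start of Stat5b, 115 bases upstream. No motif overlapped another in these windows. A match describes letters and not a bound site. The Stat5b window printed above had 82.7% GC and 50 CpG and the Stat5a window printed above 57.7% GC and 5 CpG. These starts lie 9075 bases apart on opposite strands. The other Stat5a start had 67.7% GC and 27 CpG, and the internal Stat5b start had 47.3% GC and 7 CpG. The contrast within the pair thus depends on the starts compared. The deposited values are counts per gene and do not separate PPARγ1 from PPARγ2.

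Per kilobase of exon, so that genes can be compared, Cebpb and Rxra were the most abundant of the 9 in every group and Cebpa was the least. On day 0 the level of Rxra was 33.1 ± 0.865 CPM per kb with Kdm5c siRNA and 38.0 ± 0.656 in scramble (SD, n = 5 each, as for all values below). Cebpb stood at 36.9 ± 1.77 CPM per kb with Kdm5c siRNA and 37.5 ± 6.99 CPM per kb in scramble, so it was not apart from Rxra in scramble. Nr3c1 came next at 17.6 ± 0.238 with Kdm5c siRNA and 19 ± 0.385 in scramble, then Pparg at 14.2 ± 0.387 with Kdm5c siRNA and 13.3 ± 0.358 in scramble, and Rxrb at 12.9 ± 0.405 with Kdm5c siRNA and 12.8 ± 0.341 in scramble. Stat5b had 6.03 ± 0.201 CPM per kb with Kdm5c siRNA and 6.21 ± 0.181 in scramble; Stat5a had 5.07 ± 0.26 with Kdm5c siRNA and 6.44 ± 0.33 in scramble. On this scale Stat5b was thus above Stat5a with Kdm5c siRNA, while the pair lay within 1 SD of each other in scramble. In CPM, Stat5a was the higher of the pair on day 0, at 1.08 times Stat5b with Kdm5c siRNA and 1.34 times in scramble. The order with Kdm5c siRNA thus rests on the exon lengths used. Cebpd was at 2.60 ± 0.236 with Kdm5c siRNA and 3.30 ± 0.397 in scramble, and Cebpa at 2.06 ± 0.111 CPM per kb with Kdm5c siRNA and 2.34 ± 0.2 CPM per kb in scramble. Cebpa rested on 38 to 189 reads a library and Cebpd on 194 to 438, against 2690 to 6359 for Rxra.

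**Figure D1:**
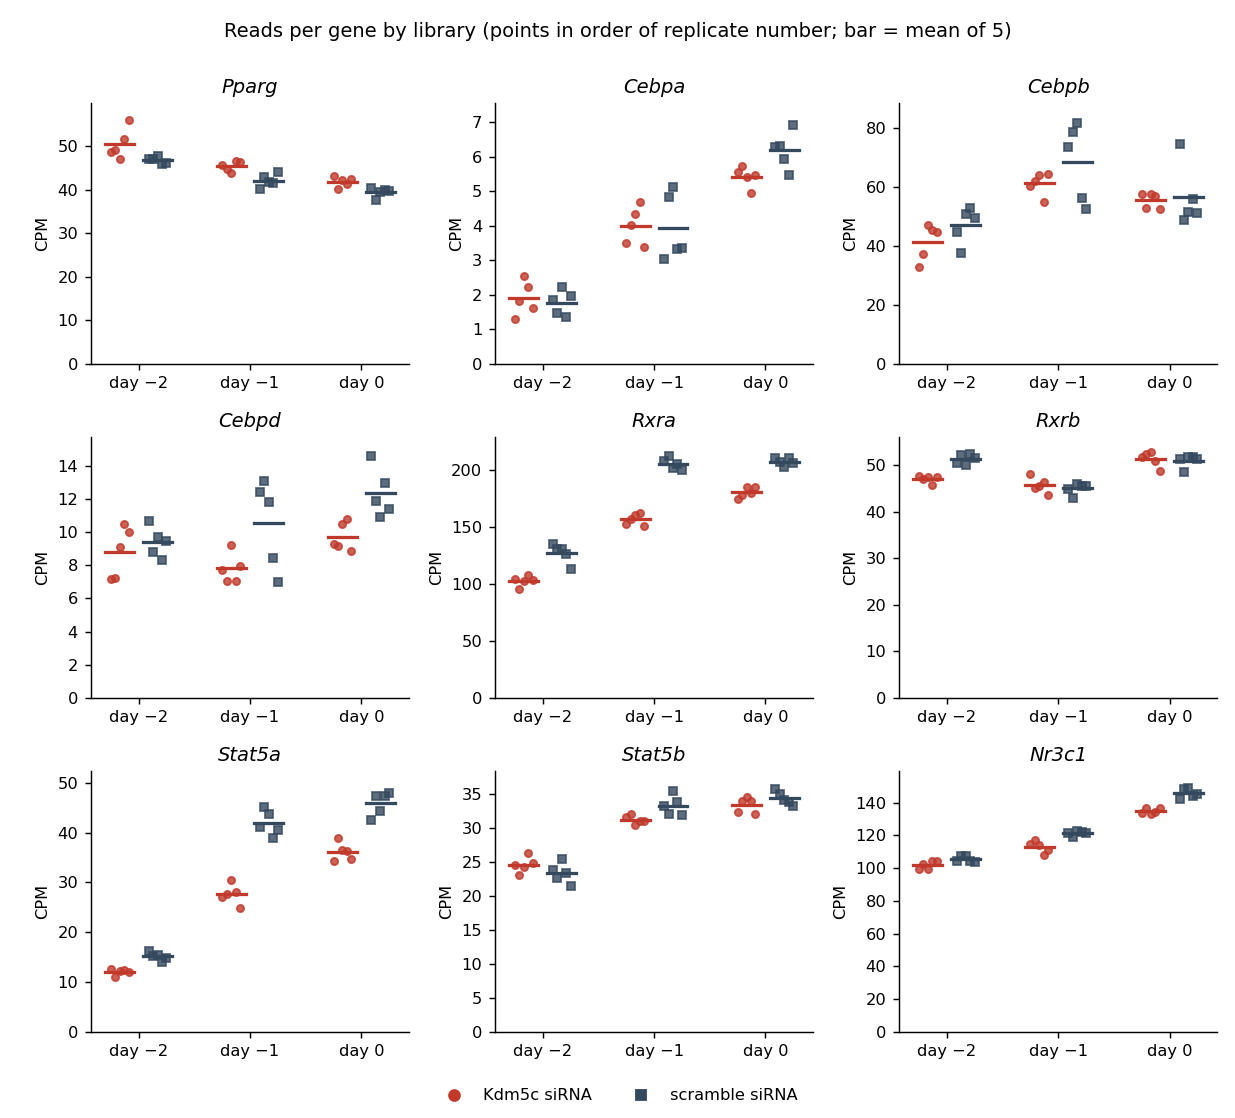
Level of each of the 9 genes (CPM, linear axes from 0) in the 30 libraries by day, with Kdm5c siRNA (red circles) left of scramble (dark squares), points in order of replicate number and the bar at the mean of 5. Stat5a and Rxra libraries with Kdm5c siRNA lie below all scramble libraries on each day, and Cebpb and Cebpd show scramble replicates 1 to 3 of day −1 above replicates 4 and 5.

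With Kdm5c siRNA, Stat5a and Rxra were called lower than in scramble on all 3 days. Nr3c1 and Cebpd were called lower on days −1 and 0, and Pparg was called slightly higher on each day. Cebpa, Cebpb and Stat5b passed the test on no day, and Rxrb was lower on day −2 alone. Calls rest on edgeR's quasi-likelihood test, taking adjusted p values below 0.05 after Benjamini-Hochberg adjustment over all 12016 genes. On day −2, 4 of the 9 members were called, 1 higher and 3 lower; of all genes 23.2% were called, 11.3% higher and 11.9% lower. On day −1, 5 members were called, 1 higher and 4 lower, where 35.6% of all genes were called, 18.8% higher and 16.8% lower. On day 0, again 5 were called, 1 higher and 4 lower, against 35.5% of all genes, 19.3% higher and 16.2% lower. The median log2 change over the 9 members was −0.09, −0.10 and −0.11 on days −2, −1 and 0, where the median over all genes was 0.0, 0.002 and 0.003. Without scramble libraries 1, 2 and 3 of day −1, which leaves 2 scramble libraries on that day, 3 members were called there, Rxra, Stat5a and Nr3c1, and calls over all genes numbered 2568 in place of 4272. Libraries of both siRNAs were fully apart for 3 members on day −2 (Rxra, Rxrb, Stat5a), for 3 on day −1 (Rxra, Stat5a, Nr3c1) and for 4 on day 0 (Cebpd, Rxra, Stat5a, Nr3c1). The same was so for 16.1%, 22.3% and 21.7% of all genes on these days. In bulk RNA, fewer cells that express a gene and less RNA of it per cell cannot be told apart.

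**Figure D2:**
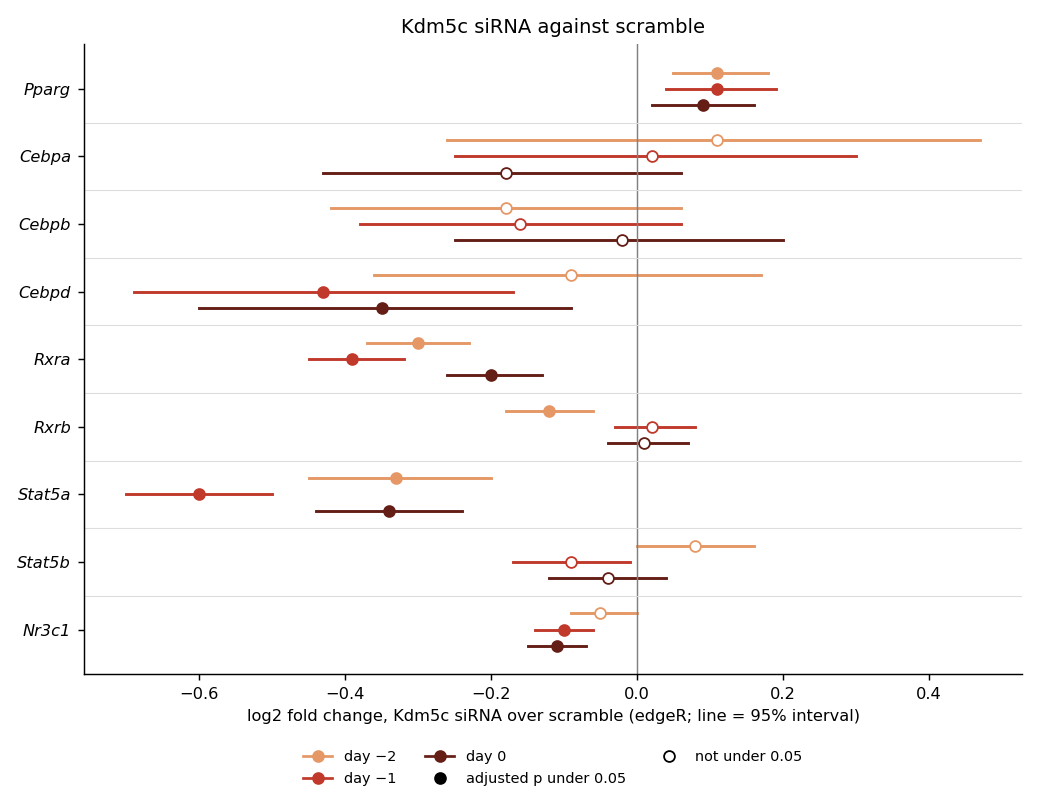
Log2 fold change of each gene, Kdm5c siRNA over scramble, on days −2, −1 and 0 (edgeR; lines are 95% intervals; filled points passed an adjusted p of 0.05, open points did not). Stat5a reaches −0.60 on day −1, Rxra lies at −0.30, −0.39 and −0.20, Pparg stays between 0.09 and 0.11, and the intervals of Cebpa and Cebpb cross 0 on every day.

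Stat5a (ENSMUSG00000004043, chr11:100859351-100885169, plus strand, GRCm38) and Stat5b (ENSMUSG00000020919, chr11:100780731-100850724, minus strand) encode the closely related STAT5 proteins that carry growth hormone and prolactin signals from JAK2 to the nucleus. On day −2 Stat5a stood at 12.6, 11.1, 12.2, 12.4 and 12.1 CPM in Kdm5c siRNA libraries, against 16.3, 15.2, 15.5, 14 and 14.8 CPM in scramble. Day −1 values were 27.1, 27.7, 30.6, 28 and 24.9 CPM with Kdm5c siRNA, against 41.2, 45.1, 43.8, 39.0 and 40.5 CPM in scramble. On day 0 it was 34.3, 39.0, 36.6, 36.3 and 34.7 CPM with Kdm5c siRNA, against 42.5, 47.4, 44.4, 47.3 and 48.0 CPM in scramble. All Kdm5c siRNA libraries lay below all scramble libraries of their day. The log2 fold change was −0.33 on day −2 (SE 0.061, adjusted p = 0.000129), −0.60 on day −1 (SE 0.048, adjusted p = 7.59e-12) and −0.34 on day 0 (SE 0.047, adjusted p = 5.87e-07). By size it ranked 47 of the 2019 genes called lower on day −1, 141 of 1426 on day −2 and 268 of 1941 on day 0. The call held in each alternative tried on every day.

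Stat5b passed the test on no day, but lay near the threshold on day −1. It averaged 24.6 ± 1.17 CPM with Kdm5c siRNA and 23.4 ± 1.53 CPM in scramble on day −2, 31.2 ± 0.674 CPM with Kdm5c siRNA and 33.3 ± 1.44 CPM in scramble on day −1, and 33.4 ± 1.12 CPM with Kdm5c siRNA and 34.4 ± 1.0 CPM in scramble on day 0. The libraries overlapped on each day. Its log2 fold changes were 0.08 (adjusted p = 0.156), −0.09 (adjusted p = 0.0598) and −0.04 (adjusted p = 0.44), with 95% intervals of −0.0 to 0.16, −0.17 to −0.01 and −0.12 to 0.04. It was called lower on day −1 in 4 of 23 alternatives (upper-quartile scaling, the stricter filter, and without scramble replicate 2 or 5; adjusted p from 0.0362 to 0.0483) and higher on day −2 in 1 of 22. The exact permutation test on CPM gave an unadjusted p = 0.183, 0.0238 and 0.175 on days −2, −1 and 0. Of the 50-base words of Stat5a exons, 8.21% also occur in Stat5b, and 11% of those of Stat5b in Stat5a, so a small share of their reads could be assigned to either, or dropped, by a counter. No such word was shared between Rxra and Rxrb, between Cebpa and Cebpb, or between Cebpb and Cebpd.

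The ratio of Stat5a to Stat5b within a library, which needs no scaling between libraries, was 0.491 ± 0.0178 with Kdm5c siRNA and 0.651 ± 0.0447 in scramble on day −2. It was 0.886 ± 0.0759 with Kdm5c siRNA and 1.26 ± 0.0916 in scramble on day −1, and 1.08 ± 0.036 with Kdm5c siRNA and 1.34 ± 0.0979 in scramble on day 0. The exact two-sided permutation test gave p = 0.00794 on each day, the smallest that 5 against 5 can give, and 0.0119 after Benjamini-Hochberg adjustment over the 9 ratios tested. Every Kdm5c siRNA library had a lower ratio than every scramble library of its day, and both siRNAs had higher ratios on later days.

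**Figure D3:**
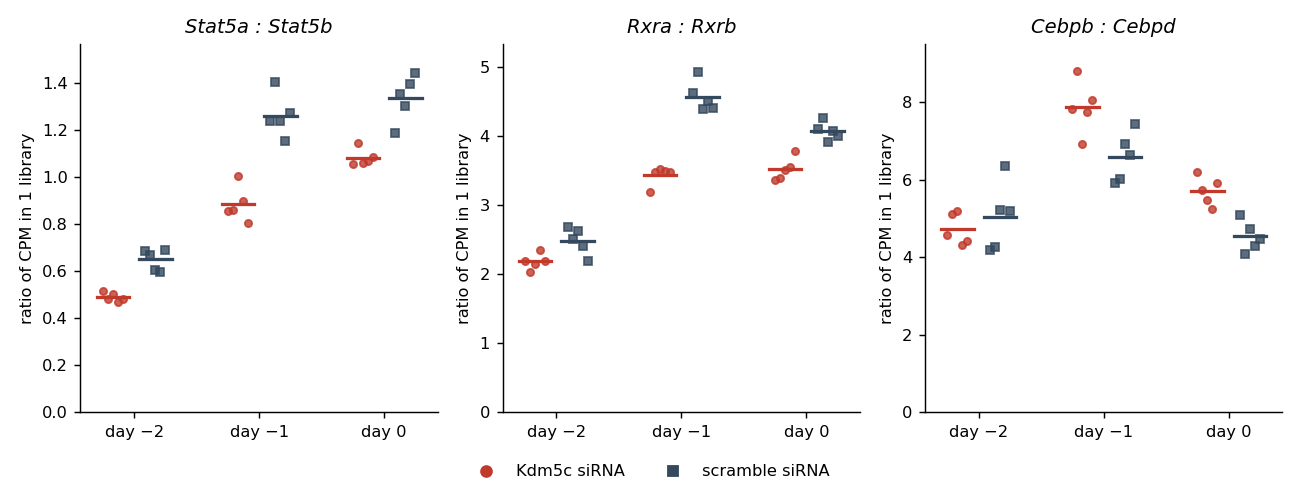
Ratio of CPM between paired genes within each library (Stat5a to Stat5b, Rxra to Rxrb, Cebpb to Cebpd; axes from 0), by day, with Kdm5c siRNA left of scramble and bars at the mean of 5. The Stat5a to Stat5b ratio with Kdm5c siRNA is 0.491, 0.886 and 1.08 on days −2, −1 and 0, below the scramble means of 0.651, 1.26 and 1.34.

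Rxra (ENSMUSG00000015846, chr2:27676440-27762957, plus strand) and Rxrb (ENSMUSG00000039656, chr17:34031812-34038399, plus strand) encode RXRα and RXRβ, the dimer partners of PPARγ and of many other nuclear receptors. On day −2 Rxra stood at 104.4, 95.8, 102.2, 107.9 and 103.9 CPM with Kdm5c siRNA, against 135.0, 131.1, 131.1, 126.0 and 113.2 CPM in scramble. Day −1 libraries had 153.1, 156.9, 160.7, 162.4 and 151.0 CPM with Kdm5c siRNA, against 207.9, 212.1, 201.8, 205.4 and 200.4 CPM in scramble. On day 0 the values were 174.3, 178.0, 185.5, 180.3 and 184.9 CPM with Kdm5c siRNA, against 210.8, 207.3, 202.4, 210.9 and 205.9 CPM in scramble. The groups were apart on every day, and scramble replicate 5 of day −2 was the scramble library nearest to the Kdm5c siRNA libraries. The log2 fold change was −0.30 on day −2 (SE 0.034, adjusted p = 1.98e-08), −0.39 on day −1 (SE 0.032, adjusted p = 1.57e-11) and −0.20 on day 0 (SE 0.032, adjusted p = 9.32e-06), a call kept in each alternative tried. Kdm5c siRNA left Rxra at 80.8%, 76.3% and 87.1% of scramble.

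Rxrb fell on day −2 alone, to 47.1 ± 0.75 CPM with Kdm5c siRNA, against 51.3 ± 1.06 CPM in scramble, with no overlap of libraries (log2 fold change −0.12, SE 0.028, adjusted p = 0.00152). It was 45.7 ± 1.68 CPM with Kdm5c siRNA and 45.0 ± 1.19 CPM in scramble on day −1 (0.02, 95% interval −0.03 to 0.08, adjusted p = 0.563) and 51.3 ± 1.61 CPM with Kdm5c siRNA and 51.0 ± 1.35 CPM in scramble on day 0 (0.01, −0.04 to 0.07, adjusted p = 0.754). The ratio of Rxra to Rxrb was 2.19 ± 0.114 with Kdm5c siRNA and 2.48 ± 0.192 in scramble on day −2, where the ranges overlapped (exact permutation p = 0.0159, adjusted 0.0204). On day −1 it was 3.43 ± 0.139 with Kdm5c siRNA and 4.57 ± 0.225 in scramble, and on day 0 3.52 ± 0.167 with Kdm5c siRNA and 4.07 ± 0.131 in scramble, with no overlap (exact permutation p = 0.00794 each, adjusted 0.0119).

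Pparg (ENSMUSG00000000440, chr6:115360951-115490399, plus strand), the gene of the master regulator of fat cells, was the one member that rose. On day −2 it stood at 48.7, 49.0, 47.0, 51.7 and 56.0 CPM with Kdm5c siRNA, against 47.1, 47.1, 47.7, 45.8 and 46.1 CPM in scramble. On day −1 it stood at 45.7, 44.7, 43.8, 46.6 and 46.3 CPM with Kdm5c siRNA, against 40.2, 42.8, 41.8, 41.4 and 44.0 CPM in scramble. On day 0 it was 43.0, 40.2, 42.3, 41.2 and 42.4 CPM with Kdm5c siRNA, against 40.3, 37.6, 39.5, 39.9 and 39.7 CPM in scramble. On each day 4 of the 5 Kdm5c siRNA libraries lay above all scramble libraries and 1 lay among them. The log2 fold change was 0.11 on day −2 (SE 0.034, adjusted p = 0.0117), 0.11 on day −1 (SE 0.034, adjusted p = 0.00825) and 0.09 on day 0 (SE 0.035, adjusted p = 0.0462). These are rises of 8.3%, 8.3% and 6.3%. The call was lost on day −2 without Kdm5c siRNA replicate 5 (0.08, adjusted p = 0.0679) and on day −1 without the 3 scramble libraries named above (0.09, adjusted p = 0.169). On day 0 it was lost in 14 of 22 alternatives, with adjusted p from 0.032 to 0.173 over all of them.

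Cebpd (ENSMUSG00000071637, chr16:15887286-15891031, plus strand), the gene of the early factor C/EBPδ, was called lower on days −1 and 0. On day −1 it stood at 7.69, 7.05, 9.25, 7.08 and 7.98 CPM with Kdm5c siRNA, against 12.4, 13.1, 11.8, 8.44 and 7.01 CPM in scramble, where replicates 1 to 3 were high and 4 and 5 lay among the Kdm5c siRNA libraries. The log2 fold change was −0.43 (SE 0.127, adjusted p = 0.00799), but 0.01 without the 3 high scramble libraries (adjusted p = 0.965). Exact permutation on CPM with all libraries gave an unadjusted p = 0.0952 on day −1 and 0.00794 on day 0. On day 0 it stood at 9.29, 9.19, 10.5, 10.8 and 8.84 CPM with Kdm5c siRNA, against 14.6, 11.9, 10.9, 13 and 11.4 CPM in scramble. These groups did not overlap (−0.35, SE 0.122, adjusted p = 0.0252). The day 0 call was lost when Kdm5c siRNA replicate 1, 2 or 5 or scramble replicate 1 or 4 was left out, with adjusted p from 0.0523 to 0.0841 and log2 fold changes from −0.33 to −0.28. On day −2 the means were 8.81 ± 1.55 CPM with Kdm5c siRNA and 9.39 ± 0.902 CPM in scramble (−0.09, adjusted p = 0.651).

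Cebpb (ENSMUSG00000056501, chr2:167688915-167690418, plus strand), which encodes C/EBPβ, averaged 41.4 ± 6.14 CPM with Kdm5c siRNA and 47.0 ± 6.03 CPM in scramble on day −2. Cebpb on day −1 stood at 60.3, 62.1, 64.0, 54.9 and 64.4 CPM with Kdm5c siRNA, against 73.3, 78.6, 81.6, 56.1 and 52.3 CPM in scramble. The scramble libraries split as for Cebpd, with replicates 1 to 3 above all Kdm5c siRNA libraries. On day 0 it averaged 55.4 ± 2.66 CPM with Kdm5c siRNA and 56.4 ± 10.5 CPM in scramble, with scramble replicate 1 at 74.6 CPM and the other 4 at 48.8 to 55.7 CPM. No day passed the test (log2 fold changes −0.18, −0.16 and −0.02, adjusted p = 0.273, 0.259 and 0.893), with 95% intervals of −0.42 to 0.06, −0.38 to 0.06 and −0.25 to 0.20. Without scramble libraries 1 to 3 the day −1 value was 0.18 (adjusted p = 0.34). When genes with few reads were kept in the fit, Cebpb was called lower on day −2 (adjusted p = 4.59e-05) and on day −1 (adjusted p = 5.23e-05). The ratio of Cebpb to Cebpd was higher with Kdm5c siRNA on day 0, at 5.72 ± 0.365 against 4.54 ± 0.397 in scramble (exact permutation p = 0.00794, adjusted 0.0119). On day −1 it was 7.88 ± 0.68 with Kdm5c siRNA and 6.59 ± 0.64 in scramble (exact permutation p = 0.0238, adjusted 0.0268). That day −1 ratio was not tested without scramble libraries 1 to 3. On day −2 the ratio was 4.73 ± 0.409 with Kdm5c siRNA and 5.05 ± 0.879 in scramble (exact permutation p = 0.595).

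Cebpa (ENSMUSG00000034957, chr7:35119293-35121928, plus strand), which encodes the late factor C/EBPα, was low everywhere. It averaged 1.91 ± 0.489 CPM with Kdm5c siRNA and 1.77 ± 0.357 CPM in scramble on day −2, 3.98 ± 0.555 CPM with Kdm5c siRNA and 3.93 ± 0.965 CPM in scramble on day −1, and 5.42 ± 0.294 CPM with Kdm5c siRNA and 6.18 ± 0.528 CPM in scramble on day 0. The groups overlapped on each day, and the log2 fold changes were 0.11, 0.02 and −0.18 (adjusted p = 0.717, 0.92 and 0.244). The day 0 interval ran from −0.43 to 0.06. Exact permutation on CPM gave an unadjusted p = 0.619, 0.905 and 0.0317 on days −2, −1 and 0. The day −1 value was 0.26 (adjusted p = 0.263) without the 3 scramble libraries.

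Nr3c1 (ENSMUSG00000024431, chr18:39410545-39519421, minus strand), the gene of the glucocorticoid receptor through which dexamethasone acts in the induction cocktail, was called lower on days −1 and 0. Its day −1 values were 114.8, 117.0, 114.4, 107.9 and 111.3 CPM with Kdm5c siRNA, against 121.6, 119.0, 123.0, 122.0 and 121.3 CPM in scramble. On day 0 it stood at 133.6, 136.6, 132.9, 134.6 and 137.0 CPM with Kdm5c siRNA, against 142.2, 148.6, 149.1, 144.1 and 145.3 CPM in scramble. The libraries were apart on both days. The log2 fold change was −0.10 on day −1 (SE 0.021, adjusted p = 0.000248) and −0.11 on day 0 (SE 0.021, adjusted p = 7.92e-05). These changes were small beside the others called: by size Nr3c1 ranked 1671 of 2019 and 1543 of 1941 genes called lower. On day −2 it averaged 102 ± 2.5 CPM with Kdm5c siRNA and 106 ± 1.59 CPM in scramble, with overlap (−0.05, adjusted p = 0.124). Exact permutation on CPM gave an unadjusted p = 0.0476 on that day.

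Over time in scramble cells, Stat5a and Cebpa changed most. Between days −2 and −1, 8 of the 9 members were called, 6 higher and 2 lower on day −1, where 78.9% of all genes were called, 39.5% higher and 39.4% lower. Between days −1 and 0, 6 members were called, 5 higher and 1 lower, against 74.7% of all genes, 36.8% higher and 37.9% lower. From day −2 to day 0, 7 were called, 6 higher and 1 lower, against 88.2% of all genes, 44.6% higher and 43.6% lower. Most genes moved, so a call by itself does not set a member apart; the sizes of the changes are given beside a median absolute log2 change over all genes of 0.269, 0.224 and 0.466 in these comparisons. The time comparisons share their scramble libraries with the siRNA comparisons.

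Stat5a in scramble averaged 15.2 ± 0.864, 42.0 ± 2.46 and 45.9 ± 2.36 CPM on days −2, −1 and 0, with log2 fold changes of 1.39 (SE 0.052, adjusted p = 3.78e-22) for day −1 over day −2 and 0.17 (SE 0.046, adjusted p = 0.00178) for day 0 over day −1. Stat5b in scramble averaged 23.4, 33.3 and 34.4 CPM, with log2 steps of 0.44 (SE 0.039, adjusted p = 3.20e-12) and 0.08, that of day 0 missing the threshold (adjusted p = 0.0502). Cebpa in scramble averaged 1.77, 3.93 and 6.18 CPM and rose in both steps, by 1.08 (SE 0.155, adjusted p = 1.42e-07) and 0.68 (SE 0.126, adjusted p = 1.13e-05) on the log2 scale. From day −2 to day 0 the log2 fold change was 1.76 for Cebpa (95% interval 1.46 to 2.06) and 1.56 for Stat5a (1.45 to 1.67), intervals that overlap, and it was 1.12 for Cebpa with limma at a pseudocount of 2. Rxra averaged 127, 206 and 207 CPM, rising by 0.62 (SE 0.033, adjusted p = 3.78e-18) by day −1 and then not passing the test (0.05, adjusted p = 0.172). Nr3c1 averaged 106, 121 and 146 CPM, up by 0.13 (adjusted p = 1.26e-06) and 0.30 (adjusted p = 7.55e-15).

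Pparg went the other way, averaging 46.8, 42.0 and 39.4 CPM in scramble, with a fall of 0.23 on the log2 scale by day −1 (log2 fold change −0.23, SE 0.034, adjusted p = 3.01e-07) and −0.06 after it (adjusted p = 0.133). Rxrb fell by 0.26 (log2 fold change −0.26, adjusted p = 2.13e-10) and then rose by 0.21 (adjusted p = 2.25e-08), so that day 0 over day −2 gave −0.05 (adjusted p = 0.103). Cebpb was higher on day −1 than on day −2 (0.47, SE 0.109, adjusted p = 0.00024) and lower on day 0 than on day −1 (−0.24, adjusted p = 0.0436), and Cebpd changed by 0.09 (adjusted p = 0.508) and 0.27 (adjusted p = 0.0425). Both depend on the 3 high scramble libraries of day −1: without them Cebpb gave 0.14 (adjusted p = 0.329) for day −1 over day −2 and 0.09 (adjusted p = 0.511) for day 0 over day −1, and Cebpd gave −0.35 (adjusted p = 0.0227) for day −1 over day −2 and 0.71 (adjusted p = 2.37e-05) for day 0 over day −1. The day 0 over day −1 call of Cebpb was lost or turned in 11 of 23 alternatives, and that of Cebpd was lost in 11 of 23.

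**Figure D4:**
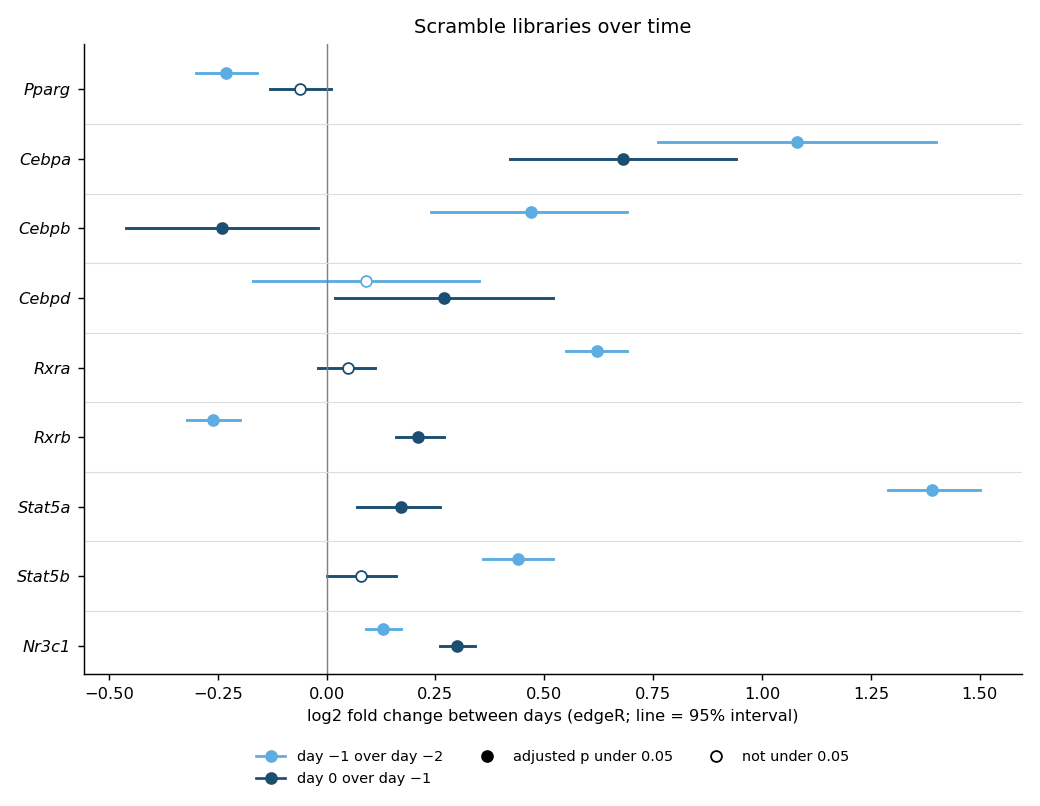
Log2 fold change of each gene between days in scramble libraries (light points day −1 over day −2, dark points day 0 over day −1; edgeR, lines are 95% intervals, filled points passed an adjusted p of 0.05). Stat5a gains 1.39 in the first step and 0.17 in the next, Cebpa gains 1.08 and 0.68, and Pparg has −0.23 and −0.06.

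Set in order of level, the groups of Stat5a, of Rxra and of Nr3c1 separated best among the members. The separation of neighbouring groups was not counted over all genes. Between days in scramble, 74.7% to 88.2% of all genes were called. Whether the order given here sets a member apart from other genes was thus not tested. For Stat5a and Rxra the order from high to low was scramble day 0, scramble day −1, Kdm5c siRNA day 0, Kdm5c siRNA day −1, scramble day −2 and Kdm5c siRNA day −2. In it only the libraries of the first pair of neighbours overlapped. For Nr3c1 only the groups of day −2 overlapped in the order from scramble day 0, Kdm5c siRNA day 0, scramble day −1 and Kdm5c siRNA day −1 down. For Pparg, Cebpb and Cebpd every pair of neighbours overlapped. For Cebpa the neighbours were apart between Kdm5c siRNA of days 0 and −1, and between scramble day −1 and Kdm5c siRNA day −2. For Stat5b they were apart between Kdm5c siRNA of days −1 and −2 only, and for Rxrb between scramble day 0 and Kdm5c siRNA day −2 only. With Kdm5c siRNA, the mean CPM of Stat5a on day 0 was 3.0 times that of day −2, and in scramble 3.03 times; for Cebpa these folds were 2.84 and 3.49, for Rxra 1.76 and 1.63, and for Pparg 0.828 and 0.843.

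The siRNA effect itself differed between days for 3 members. On day −1 minus day −2, 2 members were called, against 3.56% of all genes: the Stat5a effect was more negative by 0.28 (difference −0.28, SE 0.078, adjusted p = 0.04) and the Rxrb effect was higher by 0.14 (SE 0.039, adjusted p = 0.0355). On day 0 minus day −1, 2 were called, against 5.87% of all genes: Stat5a at 0.26 (SE 0.067, adjusted p = 0.0149) and Rxra at 0.19 (SE 0.045, adjusted p = 0.00783), both effects being smaller on day 0. On day 0 minus day −2, 1 was called, against 16.1% of all genes, which was Rxrb at 0.13 (SE 0.039, adjusted p = 0.017). The Stat5b effect changed by −0.17 between days −2 and −1 (adjusted p = 0.0776). Nr3c1 and Cebpd, called on days −1 and 0 alone, showed no called difference from day −2. The Nr3c1 effect differed from that of day −2 by −0.06 on day −1 (adjusted p = 0.338) and −0.06 on day 0 (adjusted p = 0.146). For Cebpd these differences were −0.34 (adjusted p = 0.337) and −0.25 (adjusted p = 0.368). All of the calls that use day −1 were lost without the 3 scramble libraries of that day, with values of −0.20, 0.12, 0.18 and 0.17 for Stat5a and Rxrb against day −2 and for Stat5a and Rxra against day 0 (adjusted p = 0.26, 0.198, 0.185 and 0.0649). The Stat5a difference between days −1 and −2 was also lost when any 1 of 14 libraries was left out, with values from −0.28 to −0.24. The Rxrb difference between those days was lost in 12 of 33 alternatives (0.12 to 0.16 over all of them), and that between days 0 and −2 was lost when genes with few reads were kept (adjusted p = 0.174).

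The values below are log2 fold changes with edgeR's adjusted p. The wider pathways of these factors are given by lists written from general knowledge with earlier results of these data known, with the genes named for each being those called with the smallest adjusted p. The counts of genes called with Kdm5c siRNA are to be read against the 23.2%, 35.6% and 35.5% of all genes called on days −2, −1 and 0. Counts between days in scramble are to be read against larger shares. These were 78.9% of all genes called for day −1 over day −2 and 88.2% for day 0 over day −2. Among 14 measured other STATs, JAKs and cytokine receptors, 8 were lower and 2 higher with Kdm5c siRNA on day −1 (median log2 change −0.13), 2 lower and 1 higher on day −2 (−0.01), and 6 lower and 4 higher on day 0 (−0.04). Ghr, the growth hormone receptor that signals through STAT5, averaged 109 ± 3.77 CPM with Kdm5c siRNA and 143 ± 7.5 CPM in scramble on day −1 (−0.39, adjusted p = 1.02e-07), and 263 ± 11.1 CPM with Kdm5c siRNA and 359 ± 33.2 CPM in scramble on day 0 (−0.45, adjusted p = 1.63e-09). Il6st, the shared receptor chain of the IL-6 family, was lower on both days (−0.13 and −0.12), and Osmr, the oncostatin M receptor, was higher on day 0 by 0.38 (adjusted p = 3.04e-08). Without the 3 scramble libraries, 4 of the 14 were lower and 2 higher on day −1. In scramble all 14 were higher on day 0 than on day −2 (median 0.96), where 44.6% of all genes were higher. Il6st (0.87) and Ghr (1.76) had the smallest adjusted p there.

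STAT5 target genes did not follow one direction. Of 11 measured, 1 was called on day −2 (higher), 4 were higher and 3 lower on day −1, and 5 were higher and 1 lower on day 0, with medians of 0.05, 0.04 and 0.0. Socs2, a feedback inhibitor of growth hormone signalling, averaged 25.6 ± 2.27 CPM with Kdm5c siRNA and 42.7 ± 4.4 CPM in scramble on day 0 (log2 fold change −0.74, adjusted p = 1.38e-10), and was also lower on day −1 (−0.74, adjusted p = 1.74e-08). Cish, another such inhibitor, was lower on day −1 (−0.60, adjusted p = 1.44e-05). Ccnd1, the gene of cyclin D1, was higher on days −1 and 0 by 0.36 and 0.41, and Bcl6, a repressor, by 0.36 and 0.51. Without the 3 scramble libraries, 2 were higher and 2 lower on day −1.

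In the list of nuclear receptors that pair with RXR, which leaves out Pparg, no measured gene was called higher on days −2 and −1. Of all genes 11.3% were higher and 11.9% lower on day −2, and 18.8% higher and 16.8% lower on day −1. With 9 genes measured, 0 higher is near the shares of genes called higher. Pparg itself was called higher on both days, as given above. Of 9 measured, 4 were lower and 0 higher on day −2 (median −0.09), 6 lower and 0 higher on day −1 (−0.13), and 3 lower and 2 higher on day 0 (−0.06). At an unadjusted p under 0.05 in edgeR's test, 0 were higher on day −2 and 1 on day −1, and DESeq2 and limma called 0 higher on either day. Thra, a thyroid hormone receptor gene, averaged 50.0 ± 3.14 CPM with Kdm5c siRNA and 71.6 ± 4.98 CPM in scramble on day −1 (−0.52, adjusted p = 6.48e-12), and was also lower on day −2 (−0.34) and day 0 (−0.27). The retinoic acid receptor genes Rarg (−0.19, −0.13 and −0.10 on days −2, −1 and 0) and Rara (−0.09 and −0.15 on days −2 and −1) were lower too. Nr4a1, an orphan receptor gene of the early response, was higher on day 0 at 43.0 ± 2.31 CPM with Kdm5c siRNA and 31.7 ± 2.68 CPM in scramble (0.44, adjusted p = 3.20e-07), as was the vitamin D receptor gene Vdr (0.29). Without the 3 scramble libraries, 3 of the 9 were lower on day −1. In scramble, 9 of 9 were higher on day −1 than on day −2, where 39.5% of all genes were higher. Thra (1.33) had the smallest adjusted p there.

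Of 30 adipocyte genes known as targets of PPARγ and C/EBPα, 17 were measured. With Kdm5c siRNA 3 were lower and 3 higher on day −2 (median 0.02), 8 lower and 2 higher on day −1 (−0.14), and 6 lower and 2 higher on day 0 (−0.04). Without the 3 scramble libraries, day −1 gave 6 lower and 1 higher. Plin4, a lipid droplet coat protein gene, averaged 14.4 ± 0.79 CPM with Kdm5c siRNA and 19.3 ± 1.73 CPM in scramble on day −2, 42.9 ± 2.18 CPM with Kdm5c siRNA and 65.1 ± 5.91 CPM in scramble on day −1, and 76.5 ± 3.29 CPM with Kdm5c siRNA and 92.1 ± 3.22 CPM in scramble on day 0. Its log2 fold changes were −0.42, −0.60 and −0.26 (adjusted p = 1.03e-05, 1.73e-11 and 3.52e-05). Lpl, the gene of lipoprotein lipase, was lower on days −1 and 0 (−0.33 and −0.22), as was Scd1, a fatty acid desaturase gene (−0.21 and −0.13). Lipe, the gene of hormone-sensitive lipase, was lower on day 0 (−0.37). In scramble 12 of the 17 were higher and 4 lower on day 0 than on day −2 (median 0.56). Of all genes 44.6% were higher and 43.6% lower in that comparison. Mgst1 (2.11) and Plin4 (2.21) had the smallest adjusted p there.

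**Figure D5:**
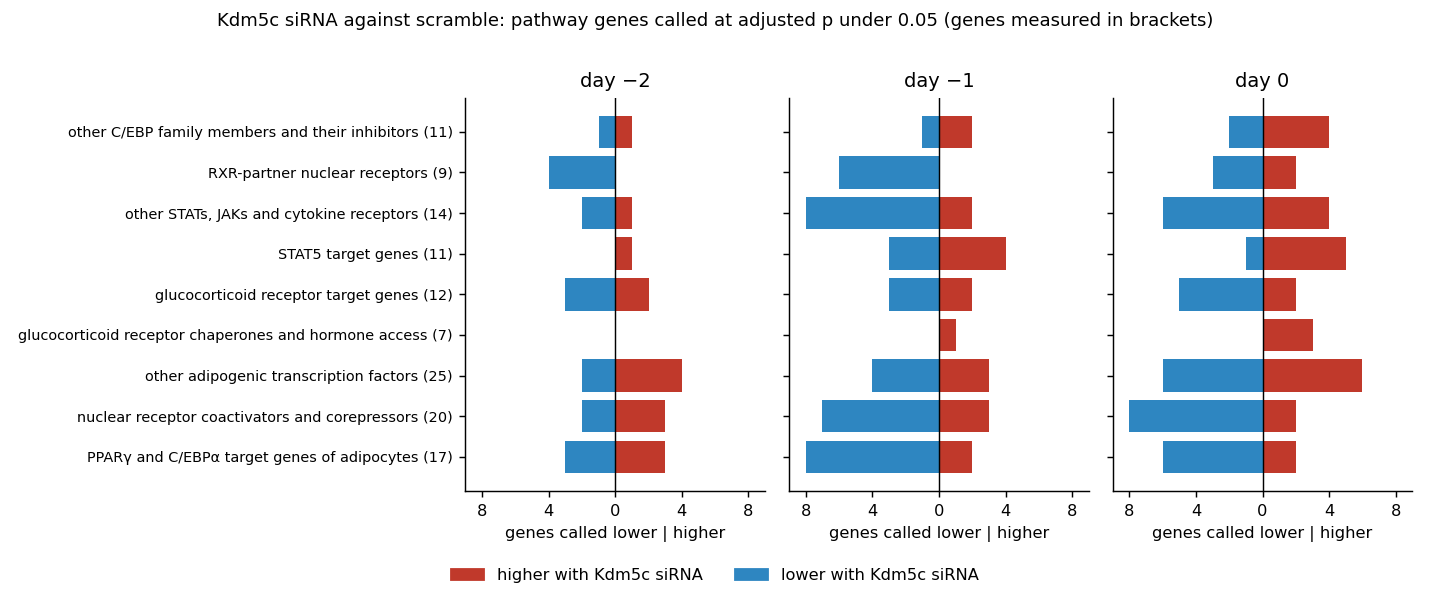
Genes of 9 pathway lists called lower (blue, to the left) or higher (red, to the right) with Kdm5c siRNA against scramble on days −2, −1 and 0, with the number of measured genes in brackets. On day −1 the list of other STATs, JAKs and cytokine receptors has 8 lower and 2 higher and that of RXR partners 6 lower and 0 higher, where 16.8% of all genes were lower and 18.8% higher.

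Of 12 measured glucocorticoid receptor targets, 3 were lower and 2 higher on day −2 (median 0.05), 3 lower and 2 higher on day −1 (−0.02), and 5 lower and 2 higher on day 0 (−0.06). Called members were thus 5, 5 and 7 of 12, where 23.2%, 35.6% and 35.5% of all genes were called. Fkbp5, a chaperone induced by the receptor, averaged 90.9 ± 4.07 CPM with Kdm5c siRNA and 119 ± 3.99 CPM in scramble on day −1 (−0.39, adjusted p = 1.32e-11), with −0.25 on day −2 and −0.26 on day 0. Sgk1, a kinase gene induced by the hormone, was lower on days −2, −1 and 0 (−0.38, −0.44 and −0.34). Tsc22d3, a widely used target, was higher on day −2 (0.21, adjusted p = 0.00102), but averaged 38.8 ± 0.525 CPM with Kdm5c siRNA and 44.1 ± 0.931 CPM in scramble on day 0. Its siRNA effect differed by −0.39 for day 0 minus day −2 (adjusted p = 2.86e-05) and by −0.23 for day 0 minus day −1 (adjusted p = 0.011). Errfi1 was higher on day 0 (0.20). Of 7 measured chaperones and enzymes of hormone access, 0 were called on day −2, 1 higher on day −1 and 3 higher on day 0. On day −2, 1 of the 7 had an unadjusted p under 0.05 in edgeR's test (lower), and DESeq2 and limma called 0. Without the 3 scramble libraries, 2 of the 7 were lower and 0 higher on day −1. In scramble 6 of the 7 were lower and 1 higher on day 0 than on day −2. Of all genes 43.6% were lower and 44.6% higher in that comparison. Hsp90aa1 (−1.58), an HSP90 gene, had the smallest adjusted p there.

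Of 25 other adipogenic transcription factors, 2 were lower and 4 higher on day −2 (median 0.01), 4 lower and 3 higher on day −1 (−0.01), and 6 lower and 6 higher on day 0 (0.02). Called members were 6, 7 and 12 of 25, against 23.2%, 35.6% and 35.5% of all genes, so the first count is close to the share of all genes. Leaving out the 3 scramble libraries gave 3 lower and 2 higher on day −1. Klf5, an early adipogenic factor, was higher on day −1 (0.25) and day 0, at 44.7 ± 2.07 CPM with Kdm5c siRNA and 30.7 ± 2.37 CPM in scramble (0.55, adjusted p = 2.76e-12). Nfib, a nuclear factor I gene, was lower on days −2, −1 and 0 (−0.29, −0.37 and −0.32). Zfp423, a preadipocyte commitment factor, was at 23.2 ± 1.27 CPM with Kdm5c siRNA and 33.4 ± 1.94 CPM in scramble on day 0 (−0.52, adjusted p = 2.62e-08); its lower level on day −1 (−0.36, adjusted p = 0.000357) was −0.13 without the 3 scramble libraries (adjusted p = 0.325). In scramble Zfp423 was 4.00 higher on the log2 scale on day 0 than on day −2.

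Of 20 nuclear receptor coactivators and corepressors, 2 were lower and 3 higher on day −2 (median 0.01), 7 lower and 3 higher on day −1 (0.0), and 8 lower and 2 higher on day 0 (−0.06). Crebbp, the coactivator CBP, was lower on days −2, −1 and 0 (−0.09, −0.12 and −0.12), and Ppargc1b, the coactivator PGC-1β, was lower on day −1 at 2.38 ± 0.306 CPM with Kdm5c siRNA and 4.46 ± 0.624 CPM in scramble (−0.91, adjusted p = 2.34e-06). Without the 3 scramble libraries, 5 of the 20 were lower and 0 higher on day −1. Of 11 other C/EBP family members and their inhibitors, 1 was lower and 1 higher on day −2 (median 0.02), 1 lower and 2 higher on day −1 (0.08), and 2 lower and 4 higher on day 0 (0.05). On day −1, 1 was lower and 1 higher without the 3 scramble libraries. Trib2, which promotes the breakdown of C/EBPα, averaged 24.2 ± 1.51 CPM with Kdm5c siRNA and 40.6 ± 2.59 CPM in scramble on day −2 (−0.75, adjusted p = 1.36e-12) and was also lower on day −1 (−0.66). Trib2 averaged 72.9 ± 2.36 CPM with Kdm5c siRNA and 74.3 ± 4.81 CPM in scramble on day 0, and its siRNA effect differed by 0.72 for day 0 minus day −2 (adjusted p = 5.56e-09). Id2, an inhibitor of basic helix-loop-helix factors, was higher by 0.28 on day −1 and 0.55 on day 0. Ddit3, which encodes the dominant negative partner CHOP, was lower on day 0 (−0.24). In scramble these moved far more, with Id2 at −3.51 and Ddit3 at 2.00 for day 0 over day −2.

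Across the 30 libraries the genes most like Stat5a in log2 level were Aes (Pearson r = 0.991), Plcb3 (0.99) and Acss2 (0.99), and those most like Rxra were Srebf2 (0.987), Prrx1 (0.986) and Sgk1 (0.986). The nearest to Pparg were Ankrd1 (0.948), Hs6st2 (0.946) and Plekha3 (0.946), and to Cebpa Josd2 (0.956), Ctso (0.955) and Kif9 (0.953). These correlations describe 30 libraries that share 6 groups, so time and siRNA both enter them. Among the members, Stat5a and Rxra were the closest (0.98), and Stat5a and Stat5b also ran together (0.93). Pparg ran against Stat5a (−0.94) and Rxra (−0.92), and Rxrb lay between −0.43 and 0.29 with all others.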

How the data were processed

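Transcripts of 30 libraries of 3T3-L1 cells were measured by strand-specific RNA-seq. The submitters' processing notes name the aligner STAR (2.7.2a), edgeR (3.26.8) and GRCm38 as the build; no counter or gene annotation is named there. Of what the authors deposited, a CPM table covers 55573 genes and a table named as normalized holds raw counts of 12016 genes. Multiplied back, 100.0% of the nonzero CPM values were whole reads (within 0.05 reads), and 100.0% of the deposited counts equalled those reads. The count table holds exactly the genes that reach 1 CPM in 20 libraries. Library totals ran from 25217905 to 33725717 reads, and 99.73 to 99.8% of them fell in the count table.

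Levels are the CPM deposited by the authors. For tests the counts were fitted with edgeR 4.0.16 in R 4.3.3 (quasi-likelihood, TMM scaling on full library totals, 6 group means, 24 residual degrees of freedom, two-sided), with Benjamini-Hochberg adjustment over 12016 genes, and 95% intervals use those degrees of freedom. Ratios were tested by exact permutation (scipy 1.17.1). GENCODE M21 supplied symbols, exons and coordinates, naming 12010 of the genes tested. The edgeR step was tested on simulated counts. Alternatives were other scalings, other filters, a fit of the recovered reads (15135 genes), limma 3.58.1, DESeq2 1.42.0, a replicate block, each library left out, and scramble libraries 1 to 3 of day −1 left out.

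The members, lists and tests, and the choice to leave out those 3 libraries, were made with earlier results of these data known. All 9 members are named, as were, of each list and comparison, up to 4 called genes with the smallest adjusted p. Likeness takes the 3 genes with the highest Pearson r of log2 CPM. The alternatives for the list counts were added after the data were seen.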

Additional observations from a re-analysis of the deposited data

Results flagged for a closer look

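Of 54 groups of 5 libraries (9 genes in 6 groups), 2 held a library whose gap to the nearest other exceeded the critical share of 0.71 of the range, where chance gives about 1 in 20. Cebpb in scramble replicate 1 of day 0 was at 74.6 CPM, against 48.8 to 55.7 CPM in the other 4 (gap 0.734 of the range). Without that library the Cebpb difference on day 0 was 0.097 in place of −0.02 on the log2 scale (adjusted p = 0.499). Rxrb in scramble replicate 2 of day 0 was at 48.6 CPM, against 51.3 to 51.8 CPM in the others (0.865), and without it the Rxrb difference on day 0 was −0.003.

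The siRNA effect differed between days in an interaction test of edgeR for 5 pairs of gene and days. Between day −1 and day −2 these were Stat5a (−0.28, adjusted p = 0.04) and Rxrb (0.14, adjusted p = 0.0355). Between day 0 and day −1 they were Rxra (0.19, adjusted p = 0.00783) and Stat5a (0.26, adjusted p = 0.0149). Between day 0 and day −2 it was Rxrb (0.13, adjusted p = 0.017).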

How the results depend on the processing

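Of 2097 results (each of the 9 genes in each comparison and alternative), 1934 kept their direction and their side of the threshold, 73 lost their call, 39 gained one and 51 changed sign; the cause was not tested. Stat5a and Rxra kept their siRNA calls on all days in every alternative run. Members called ranged from 3 to 5, 3 to 6 and 3 to 5 for the siRNA effect on days −2, −1 and 0, from 8 to 8, 4 to 7 and 7 to 9 between days in scramble, and from 0 to 3, 0 to 2 and 0 to 2 for the differences of siRNA effects. In the fit used for calls, 23.2%, 35.6% and 35.5% of all genes were called for the siRNA effect on these days. The shares were 78.9%, 74.7% and 88.2% between days in scramble, and 3.56%, 5.87% and 16.1% for the differences. Cebpa had the fewest reads, 38 to 189 a library, and changes of that gene smaller than its intervals were not detectable here.

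Leaving out scramble libraries 1 to 3 of day −1 moved most. Members called fell to 3 for the siRNA effect on day −1, and to 0 for its differences from day −2 and day 0; over all genes these differences gave 174 calls in place of 428 and 447 in place of 705. The log2 values then changed sign for the siRNA effect on day −1 of Cebpb (0.175) and Cebpd (0.012), for Cebpd on day −1 against day −2 in scramble (−0.351) and for Cebpb on day 0 against day −1 (0.093). They also did so for the difference of day −1 minus day −2 of Cebpa (0.153) and Cebpd (0.105), and of day 0 minus day −1 of Cebpb (−0.199), Cebpd (−0.359) and Rxrb (0.008).

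Among other settings, the recovered reads left 1 member called for the difference of day −1 minus day −2, and fitting all 32318 genes with a read left 0 for day 0 minus day −2 and gave 754 calls in place of 428 over all genes for day −1 minus day −2. Upper-quartile scaling turned Rxrb on day 0 against day −2 in scramble (0.011) and Nr3c1 in day 0 minus day −1 (0.0). The Pparg difference of day −1 minus day −2, at −0.0, became 0.002 with library totals, 0.004 with limma at a pseudocount of 0.5 or 0.1, and 0.003 at 2.

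With 1 library left out, members called ranged from 3 to 5 for the siRNA effect on day 0, from 0 to 3 for day −1 minus day −2 and from 1 to 2 for day 0 minus day −2. For the siRNA effect, log2 values ranged from −0.012 to 0.22 for Cebpa on day −2, −0.057 to 0.135 for Cebpa on day −1, −0.07 to 0.097 for Cebpb on day 0 and −0.003 to 0.03 for Rxrb on day 0. For day −1 minus day −2 they ranged from −0.024 to 0.037 for Pparg, −0.2 to 0.033 for Cebpa and −0.061 to 0.093 for Cebpb. For day 0 minus day −1 they ranged from −0.006 to 0.198 for Cebpd, −0.026 to 0.007 for Rxrb and −0.024 to 0.001 for Nr3c1. For day 0 minus day −2 they ranged from −0.05 to 0.014 for Pparg and −0.045 to 0.012 for Stat5a.

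Deviations of same-numbered libraries from their group means had correlations from −0.307 to 0.299, with 8 of 75 pairs over 0.1. Differently numbered pairs were not compared, so whether same-numbered libraries share a culture or day cannot be told from these values. A fit with a replicate block gave 4187 siRNA calls on day −1 in place of 4272, added a call for Stat5b on day 0 against day −1 in scramble (0.082, adjusted p = 0.0422) and moved the Pparg difference of day −1 minus day −2 to 0.0.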
